A study of Sus scrofa with 10 samples.

Results

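The comparison set pig liver (Sus scrofa) labelled day 4, with a bioartificial liver filled with human induced hepatocytes, against pig liver labelled day 3, with the same kind of device without cells. Groups without a device carry a day too, and how long a device was used is not stated in the labels. Bioartificial livers are circuits outside the body in which blood or plasma meets living hepatocytes. The human induced hepatocytes in them are liver-like cells obtained by reprogramming other human cells. The study, by its title, concerned liver failure after hepatectomy, the surgical removal of liver tissue. RNA sequencing gave 10 liver libraries: 3 of normal liver on day 0 (Control), 2 of failure without a device on day 2 (NoBAL), 2 with the empty device on day 3 (EmptyBAL), 1 with the cell-filled device on day 4 (hiHepD4) and 2 with it on day 8 (hiHepD8). All were labelled wild type, liver and hepatocyte. The labels name no cell isolation and the RNA was extracted from pig livers, so the values are described as those of liver tissue. Of 31905 genes in the deposited table, the 12180 with at least 1 FPKM in at least 2 of the 10 libraries entered. FPKM count sequenced fragments relative to gene length and to the size of the library.

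The members are the genes whose hiHepD4 value lay outside both EmptyBAL values, 9719 of 12180 (79.8%), and they are described through the genes at least 2-fold beyond both and through gene lists of liver functions and cell types. The cell-filled device had 1 library on this day, so the comparison has no replicate check and no test, and no p-value is given. Day, device content and animal cannot be told apart. Whether the libraries of a group came from separate animals is not stated.

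Hepatocytes make most plasma proteins, turn ammonia into urea, and supply the body with glucose, cholesterol and bile acids. In the acute phase response, cytokines of the interleukin 6 family acting through STAT3 raise the hepatocyte's output of proteins such as fibrinogen and C-reactive protein. Cholesterol synthesis genes are switched on together by the transcription factor SREBP2 when sterols in the cell are low. Kupffer cells, the resident macrophages, and stellate and sinusoidal endothelial cells make up much of the rest of the liver.

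The EmptyBAL libraries differed from each other. Over the 12180 genes, Pearson's r of log2(FPKM + 1) in hiHepD4, a description across genes, was 0.752 with EmptyBAL replicate 1, 0.879 with replicate 2, 0.931 and 0.912 with the NoBAL libraries and 0.870 with both hiHepD8 libraries. Control, NoBAL and hiHepD8 libraries also had their lowest r with EmptyBAL replicate 1, at 0.686 to 0.688, 0.822 and 0.781, and 0.752 and 0.751. Between libraries of one group r was 0.992 to 0.994 in Control, 0.992 in hiHepD8 and 0.956 in NoBAL. Between the EmptyBAL libraries r was 0.893, and 2407 genes (19.8%) differed at least 2-fold between them. The 20 most abundant genes of each library held 42.4% of the summed FPKM in hiHepD4 and 29.8% and 27.8% in EmptyBAL. Summed FPKM was 813633 in hiHepD4 and 496390 and 439925 in EmptyBAL. Number of fragments sequenced is unknown, so no counting interval is given.

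A gene was counted as higher in hiHepD4 where its log2(FPKM + 1) was at least 1 above that of both EmptyBAL libraries, and as lower where it was at least 1 below both. By this rule 1319 genes were higher (10.8% of those that entered) and 923 lower (7.58%). Distance below always means the gap in log2(FPKM + 1) between hiHepD4 and the nearer EmptyBAL library, and for genes of low FPKM it is smaller than the gap between the FPKM themselves. The distance was at least 8-fold for 101 higher and 29 lower genes. Counting any gap, 5537 genes (45.5%) lay above both EmptyBAL libraries and 4182 (34.3%) below both. The split depended on scaling, with 989 higher and 1228 lower when libraries were scaled to their upper quartile, and 648 higher and 1783 lower when they were scaled without mitochondrial genes and the 20 most abundant genes. The median difference over all genes was 0.11 as deposited, -0.05 and -0.28 under those scalings, and each list below is to be read against these values. Counts of higher and lower members of a list or family are to be read against the 10.8% and 7.58% of all genes. A count against 1 EmptyBAL library alone can only be equal or larger, and is given where it is over 1.5 times the count against both. Lists with no member counted in a direction had at most 2 in it against either library alone. At the edge of the rule, ARG2 was counted as higher with 3.31 and 25.8 FPKM in the EmptyBAL libraries and 52.5 in hiHepD4. GCNT2, with 5.17 and 5.195 FPKM in the EmptyBAL libraries and 11.4 in hiHepD4, was not. HEXIM2 was counted as lower with 18.4 and 19.2 FPKM in the EmptyBAL libraries and 8.63 in hiHepD4, whereas SELENOH, with 147 and 93.2 FPKM in the EmptyBAL libraries and 46.1 in hiHepD4, was not.

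**Figure D1:**
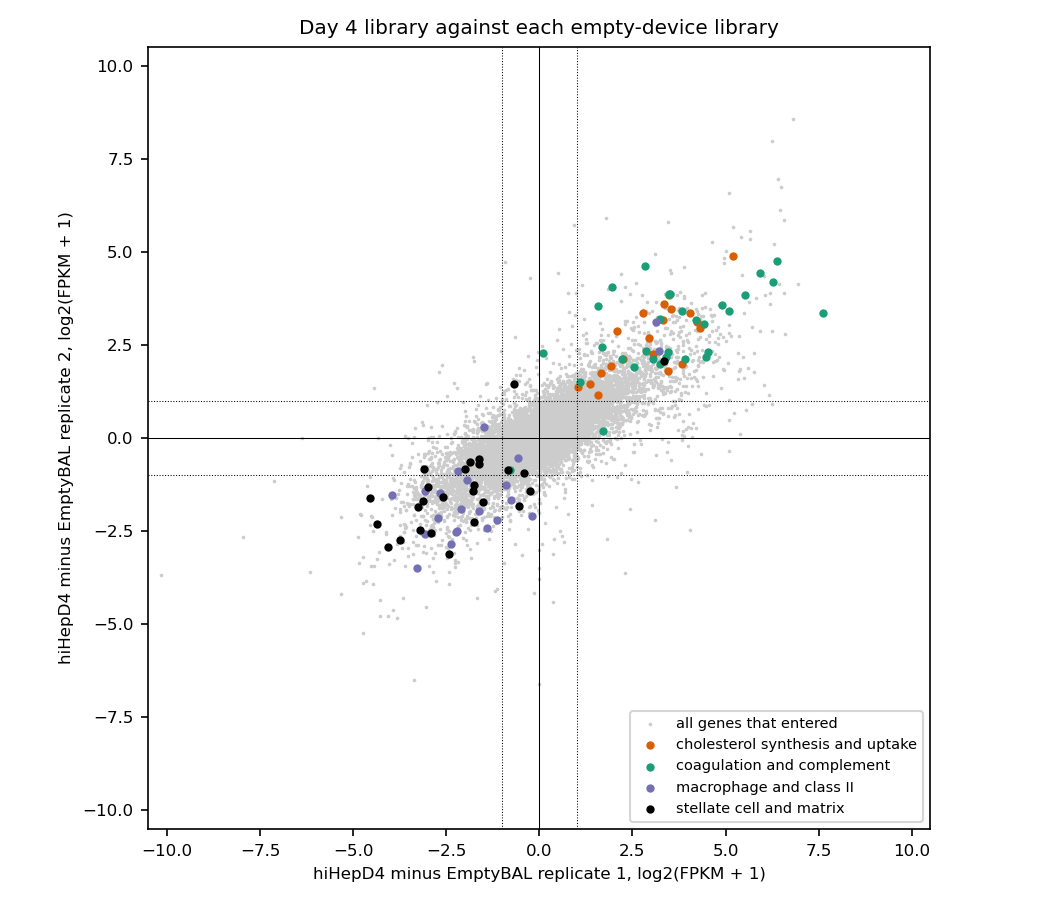
Each point is 1 of 12180 genes (grey), with log2(FPKM + 1) of hiHepD4 minus EmptyBAL replicate 1 on the horizontal axis and minus replicate 2 on the vertical axis, dotted lines at 2-fold, and members of 7 gene lists in 4 colours. The 1319 higher genes lie right of and above the dotted lines, with all 20 cholesterol genes among them, and the 923 lower genes lie left of and below them, with many macrophage, class II, stellate cell and matrix genes.

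Normal liver gives a further scale. Of the 1319 higher genes, 658 (49.9%) were above all 3 Control libraries in hiHepD4, 582 (44.1%) were below all 3, and 79 lay among them. For 465 of the 1319 (35.3%), hiHepD4 was the highest of the 10 libraries, which held for 9.11% of all genes that entered. Only a gene above both EmptyBAL libraries can be the highest of 10, so all 1109 such genes lie among the 5537 above both. The larger share among the 1319 is thus partly set by the rule that picked them. Of the 923 lower genes, 565 (61.2%) were below all Control libraries, 231 (25.0%) above all and 127 among them. The hiHepD4 library was the lowest of the 10 for 358 of the lower genes (38.8%), against 8.10% of all genes. The same limit holds here, since all 986 genes lowest in hiHepD4 lie among the 4182 below both EmptyBAL libraries.

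The named gene with the largest distance was NNMT (ENSSSCG00000015054, chromosome 9 from 41871072 to 41882415 in Sscrofa11.1), which methylates nicotinamide. It read 39.2 and 32.2 FPKM in the EmptyBAL libraries and 3580.2 in hiHepD4, 91.2 times the higher EmptyBAL value. ITIH4 (ENSSSCG00000011453, chromosome 13 from 34928455 to 34948250), which encodes a major acute phase protein of the pig, had 177 and 225 FPKM in the EmptyBAL libraries and 15790.3 in hiHepD4. SERPINA3-2, of the family of antichymotrypsin protease inhibitors, had 616 and 661 FPKM in the EmptyBAL libraries and 31135 in hiHepD4. All 3 EmptyBAL pairs were close together, and hiHepD4 stood 6.48, 6.13 and 5.56 above them on the log2 scale. SERPINA3-2 alone had the second highest FPKM of the hiHepD4 library, behind the mitochondrial gene ATP6. Control libraries had 12463 to 13609.7 FPKM of it, NoBAL 13919 and 4822, and hiHepD8 3541 and 3407. The NoBAL libraries also had 1233 and 56.4 FPKM of NNMT and 8356 and 2906 of ITIH4.

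Several enzymes were among the other leading genes. HAL, which starts histidine breakdown, had 4.25 and 10.1 FPKM in the EmptyBAL libraries and 410.3 in hiHepD4. CDO1, which oxidises cysteine, had 0.674 and 0.971 FPKM in the EmptyBAL libraries and 50.6 in hiHepD4, and ETNPPL, which breaks down phosphoethanolamine, 0.849 and 1.01 FPKM in the EmptyBAL libraries and 56.05 in hiHepD4. The hiHepD4 value of each was many times that of either EmptyBAL library. ACSM4, of the medium-chain acyl-CoA synthetase family, had 8.41 and 5.05 FPKM in the EmptyBAL libraries and 231 in hiHepD4. FGL1, a fibrinogen-related protein secreted by hepatocytes, had 7.199 and 1.94 FPKM in the EmptyBAL libraries and 281 in hiHepD4.

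Transcripts assigned to HPS5 (chromosome 2 from 40906785 to 40938847), a gene of lysosome-related organelle formation, also stood apart. They read 352 and 436 FPKM in the EmptyBAL libraries and 17898 in hiHepD4, with 102 to 107 in Control and 2709 and 579 in NoBAL. In RefSeq for Sscrofa11.1 the genes that follow HPS5 on the chromosome are SAA1P, SAA2, SAA4 and SAA3, serum amyloid A genes of the acute phase, and none of these symbols appears in the deposited table. Whether their reads entered the HPS5 value was not tested. Several of the most abundant hiHepD4 transcripts carry no symbol, among them ENSSSCG00000002486, with 194 and 56.2 FPKM in EmptyBAL and 21668 in hiHepD4, and ENSSSCG00000005488, with 481 and 349.9 FPKM in EmptyBAL and 17777 in hiHepD4.

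Acute phase genes were higher in hiHepD4 for 9 of 11 measured members and lower for none, with a median difference of 2.73 against 0.11 over all genes. For 7 of the 11, hiHepD4 was the highest of all 10 libraries, beside 9.11% of all genes. The list summed to 20108 FPKM in hiHepD4, 466 and 858 in EmptyBAL, 10309 and 3510 in NoBAL and 2819 to 2860 in Control. Untreated failure was thus also above the empty device in this sum. CRP, which encodes C-reactive protein, had 20.3 and 135 FPKM in the EmptyBAL libraries and 2044 in hiHepD4, and Control 368 to 387. CP, the copper-carrying ferroxidase ceruloplasmin, had 6.4 and 11.06 FPKM in the EmptyBAL libraries and 698 in hiHepD4. LBP, which binds bacterial lipopolysaccharide, had 4.17 and 15.5 FPKM in the EmptyBAL libraries and 334 in hiHepD4. The hiHepD4 values of CRP, CP and LBP also exceeded every Control, NoBAL and hiHepD8 library.

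The signalling genes in the list had smaller distances than the leading secreted proteins. STAT3, the transcription factor of this response, had 34.6 and 27.6 FPKM in the EmptyBAL libraries and 131 in hiHepD4, a distance of 1.90. SOCS3, its feedback inhibitor, had 64.9 and 25.4 FPKM in the EmptyBAL libraries and 136 in hiHepD4, and Control 232 to 253. SOCS3 in hiHepD4 was thus above EmptyBAL and below normal liver. The 2 members not counted were HAMP, which encodes the iron hormone hepcidin, and PTX3, and both were named after their values were seen. HAMP read 4.39 and 328 FPKM in the EmptyBAL libraries and 25.5 in hiHepD4, inside the EmptyBAL range, and PTX3 1.44 and 5.08 FPKM in the EmptyBAL libraries and 1.16 in hiHepD4. The symbols HP, ORM1, SAA2, SAA3, SAA4 and SERPINA3 were not matched and are not analysed here.

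**Figure D2:**
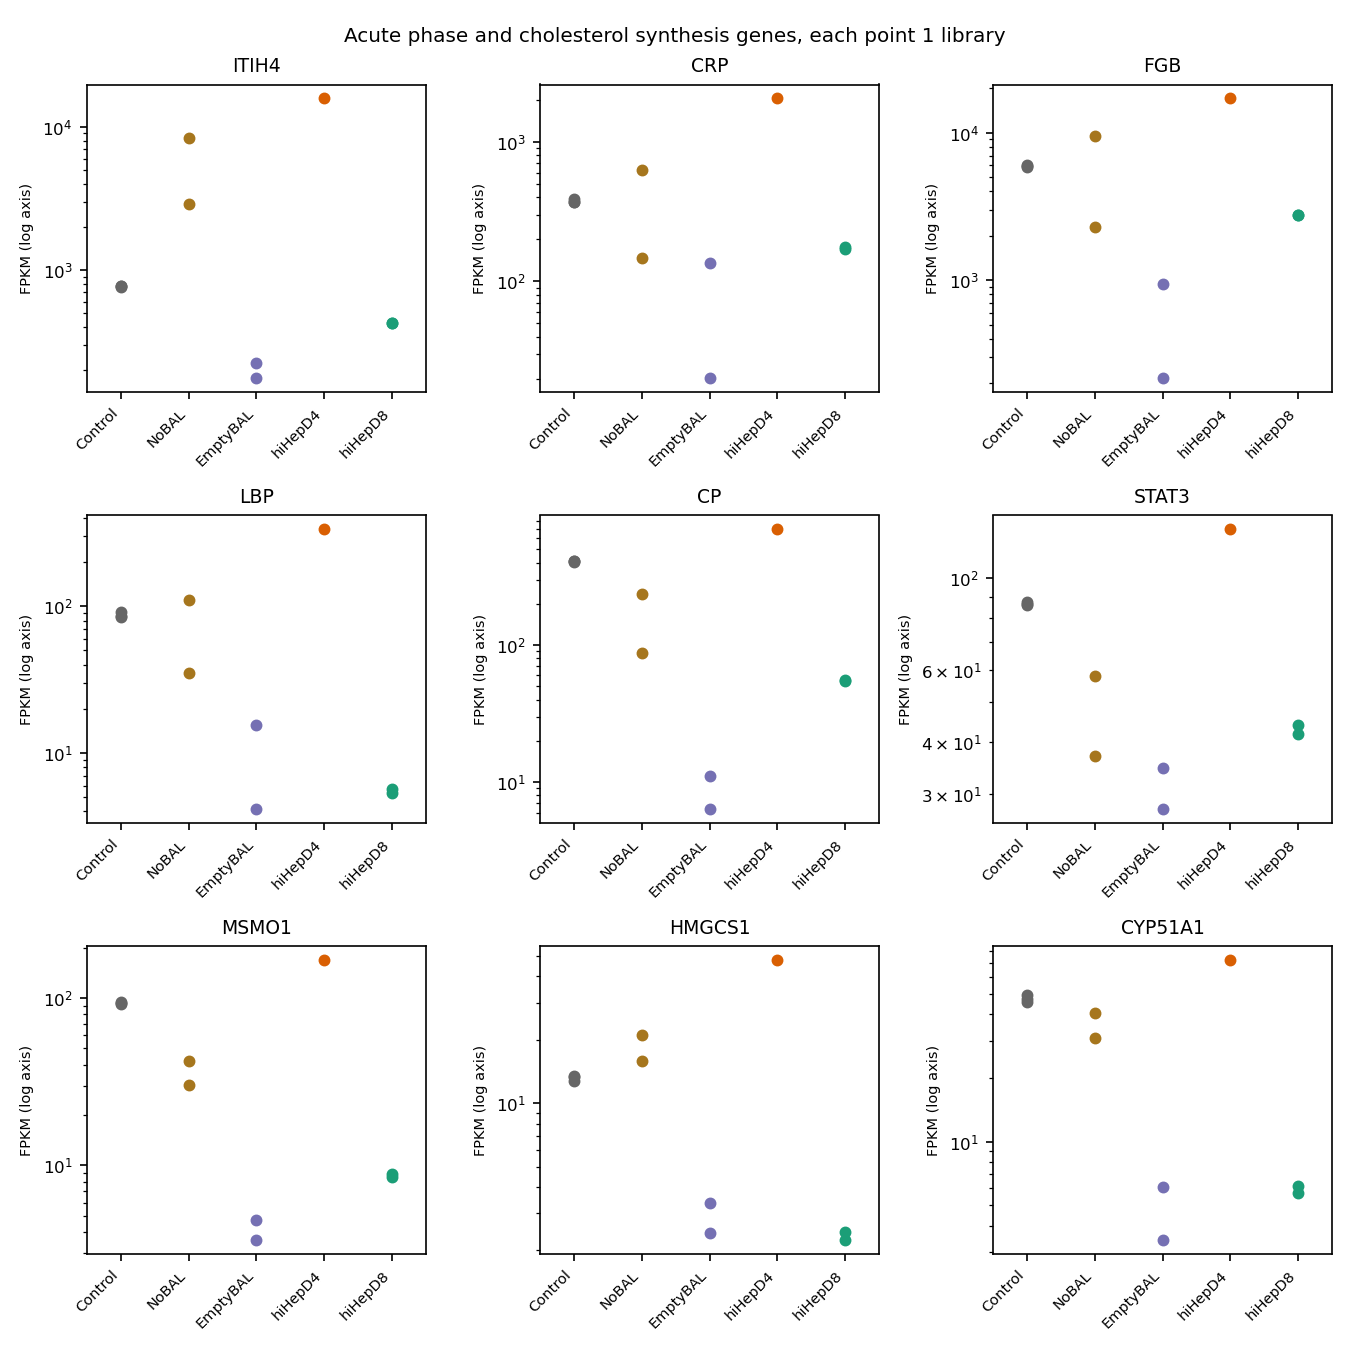
FPKM on a log axis of 9 genes that were higher in hiHepD4, 1 point per library, grouped as Control (3), NoBAL (2), EmptyBAL (2), hiHepD4 (1) and hiHepD8 (2). The single hiHepD4 point is above both EmptyBAL points in each panel, as for ITIH4 with 177 and 225 FPKM in EmptyBAL and 15790.3 in hiHepD4.

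Coagulation genes were higher in all 17 measured members, with a median difference of 3.02. The fibrinogen chains led: FGB had 218 and 942 FPKM in the EmptyBAL libraries and 17066 in hiHepD4, and FGG 202 and 618 FPKM in the EmptyBAL libraries and 16849.7 in hiHepD4. NoBAL libraries had 9495 and 2296 FPKM of FGB and 7908 and 1780 of FGG. Control libraries had 5880.2 to 6022 FPKM of FGB and 5081 to 5231 of FGG, so both chains were far above normal liver in hiHepD4. With F2 they were the 3 of the 17 above all Control libraries in hiHepD4, and the other 14 were below all of them. F2, prothrombin, had 74.5 and 57.7 FPKM in the EmptyBAL libraries and 864 in hiHepD4. F13B, the carrier subunit of the clot-crosslinking factor, had 0.594 and 2.97 FPKM in the EmptyBAL libraries and 46.7 in hiHepD4. F7, a vitamin K-dependent factor, had the smallest distance, with 37.6 and 27.5 FPKM in the EmptyBAL libraries and 80.5 in hiHepD4.

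Of 14 complement genes, 11 were higher and none lower, with a median difference of 3.37. C6, a component of the membrane attack complex, had 1.05 and 4.79 FPKM in the EmptyBAL libraries and 123 in hiHepD4, C5, whose cleavage starts that complex, 1.34 and 6.53 FPKM in the EmptyBAL libraries and 106 in hiHepD4, and C8A, another component, 25.7 and 19.2 FPKM in the EmptyBAL libraries and 296 in hiHepD4. C3, the central component on which all activation routes meet, had 177 and 236 FPKM in the EmptyBAL libraries and 2542 in hiHepD4. The Control range of C3 was 2667 to 2997 FPKM, so the hiHepD4 value lay just under normal liver, while that of C5 lay above its Control range of 60.7 to 64.1. The lectin pathway did not move as a block. MASP2 had 31.3 and 18.1 FPKM in the EmptyBAL libraries and 102 in hiHepD4, but MASP1 8.68 and 9.09 FPKM in the EmptyBAL libraries and 4.56 in hiHepD4 and MBL2 6.04 and 0.549 FPKM in the EmptyBAL libraries and 6.56 in hiHepD4, 2 members named after their values were seen, with C4BPA, at 27.3 and 79.4 FPKM in the EmptyBAL libraries and 91.4 in hiHepD4, as the third that was not counted.

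Plasma carrier genes were higher in 11 of 12 members and apolipoprotein genes in 10 of 12, with medians of 2.59 and 2.82. HPX, the heme scavenger hemopexin, had 324 and 62.04 FPKM in the EmptyBAL libraries and 3528 in hiHepD4. GC, the vitamin D binding protein, had 44.4 and 54.1 FPKM in the EmptyBAL libraries and 593 in hiHepD4, and AHSG, the mineral-binding fetuin A, 170.3 and 590.2 FPKM in the EmptyBAL libraries and 4039 in hiHepD4. These 3 remained under the Control range, which for AHSG was 7009.6 to 7316. APOH, a phospholipid-binding plasma protein, had 186 and 114 FPKM in the EmptyBAL libraries and 2782 in hiHepD4. APOB and MTTP, the structural protein of very low density lipoprotein and the lipid transfer protein that loads it, had 1.23 and 23.8 and 0.716 and 13.5 FPKM in EmptyBAL and 119 and 68.8 in hiHepD4. APOD, which is made in many tissues outside the liver, was the single lower apolipoprotein, with 4.45 and 10.8 FPKM in the EmptyBAL libraries and 1.43 in hiHepD4.

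As a check of the labelled tissue, none of 11 hepatocyte markers was at 0 in any of the 3 libraries. Of the 11, 10 were higher, and 8 and 7 were under the other scalings. Some of them, such as FGB of the coagulation list, are members of other lists too, so this count is not separate from theirs. ALB, albumin, had 1498 and 4057 FPKM in the EmptyBAL libraries and 9660.3 in hiHepD4, against 52275 to 55098 in Control. TTR, transthyretin, had 253 and 188 FPKM in the EmptyBAL libraries and 711 in hiHepD4, and TF, transferrin, 63.2 and 309 FPKM in the EmptyBAL libraries and 2183 in hiHepD4. SERPINA1, the elastase inhibitor alpha-1-antitrypsin, had 439 and 98.5 FPKM in the EmptyBAL libraries and 1591 in hiHepD4, and the asialoglycoprotein receptor genes ASGR1 and ASGR2 had 165 and 134 in hiHepD4 against 55.6 and 48.4 and 26.96 and 56.8 in EmptyBAL. The 11 markers summed to 41019 FPKM in hiHepD4, 3900.02 and 7847 in EmptyBAL, 25063 and 17009 in NoBAL and 87834 to 90579 in Control. The largest part of the hiHepD4 sum was the fibrinogen gene FGB, with 17066 FPKM, whereas FGB had 5880.2 to 6022 in Control, where ALB was the largest part. Of the 11, 3 were above all Control libraries in hiHepD4 and 8 were below all of them. Albumin and transthyretin in hiHepD4 thus stood above the empty device and well under normal liver. In bulk tissue, fewer cells of a type and less RNA per cell cannot be told apart.

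All 20 genes of cholesterol synthesis and uptake were higher, with a median difference of 2.86, 3.18 against EmptyBAL replicate 1 and 2.77 against replicate 2. The EmptyBAL libraries were close for most of them, and hiHepD4 was the highest of all 10 libraries for 11 of the 20, beside 9.11% of all genes. The list summed to 1585 FPKM in hiHepD4, 215 and 244 in EmptyBAL, 866 and 812 in NoBAL and 1659 to 1709 in Control. Of the 20, 13 were above all Control libraries in hiHepD4 and 7 below all. As a sum the list in hiHepD4 was thus just under normal liver, and EmptyBAL was far below it. MSMO1, a sterol C4 demethylation enzyme, had 3.602 and 4.71 FPKM in the EmptyBAL libraries and 168 in hiHepD4, 35.6 times the higher EmptyBAL value. HMGCS1, which makes the precursor of mevalonate, had 3.35 and 2.42 FPKM in the EmptyBAL libraries and 47.6 in hiHepD4.

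The same held for the later steps and for the control genes. CYP51A1, the lanosterol demethylase, had 3.43 and 6.12 FPKM in the EmptyBAL libraries and 71.8 in hiHepD4. INSIG1, which holds the SREBP pathway back, had 15.3 and 16.2 FPKM in the EmptyBAL libraries and 187 in hiHepD4, but Control had 458 to 489.5. SREBF2, which encodes SREBP2, had 10.4 and 11.3 FPKM in the EmptyBAL libraries and 52.7 in hiHepD4. On day 8 the hiHepD8 libraries had 8.58 and 8.84 FPKM of MSMO1 and 2.25 and 2.45 of HMGCS1. Fatty acid synthesis, run by the related factor SREBP1, had 2 of 12 members higher, beside 10.8% of all genes, and a median of 0.65. Against replicate 1 alone 3 were higher and against replicate 2 alone 4, and the median was 0.24 after scaling without the most abundant genes. FADS1, a desaturase, had 5.33 and 6.43 FPKM in the EmptyBAL libraries and 46.2 in hiHepD4, and ELOVL6, an elongase, 0.751 and 2.19 FPKM in the EmptyBAL libraries and 12.2 in hiHepD4. FASN, the fatty acid synthase, named after its value was seen, stayed inside the EmptyBAL range with 20.6 and 28.6 FPKM in the EmptyBAL libraries and 27.5 in hiHepD4.

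**Figure D3:**
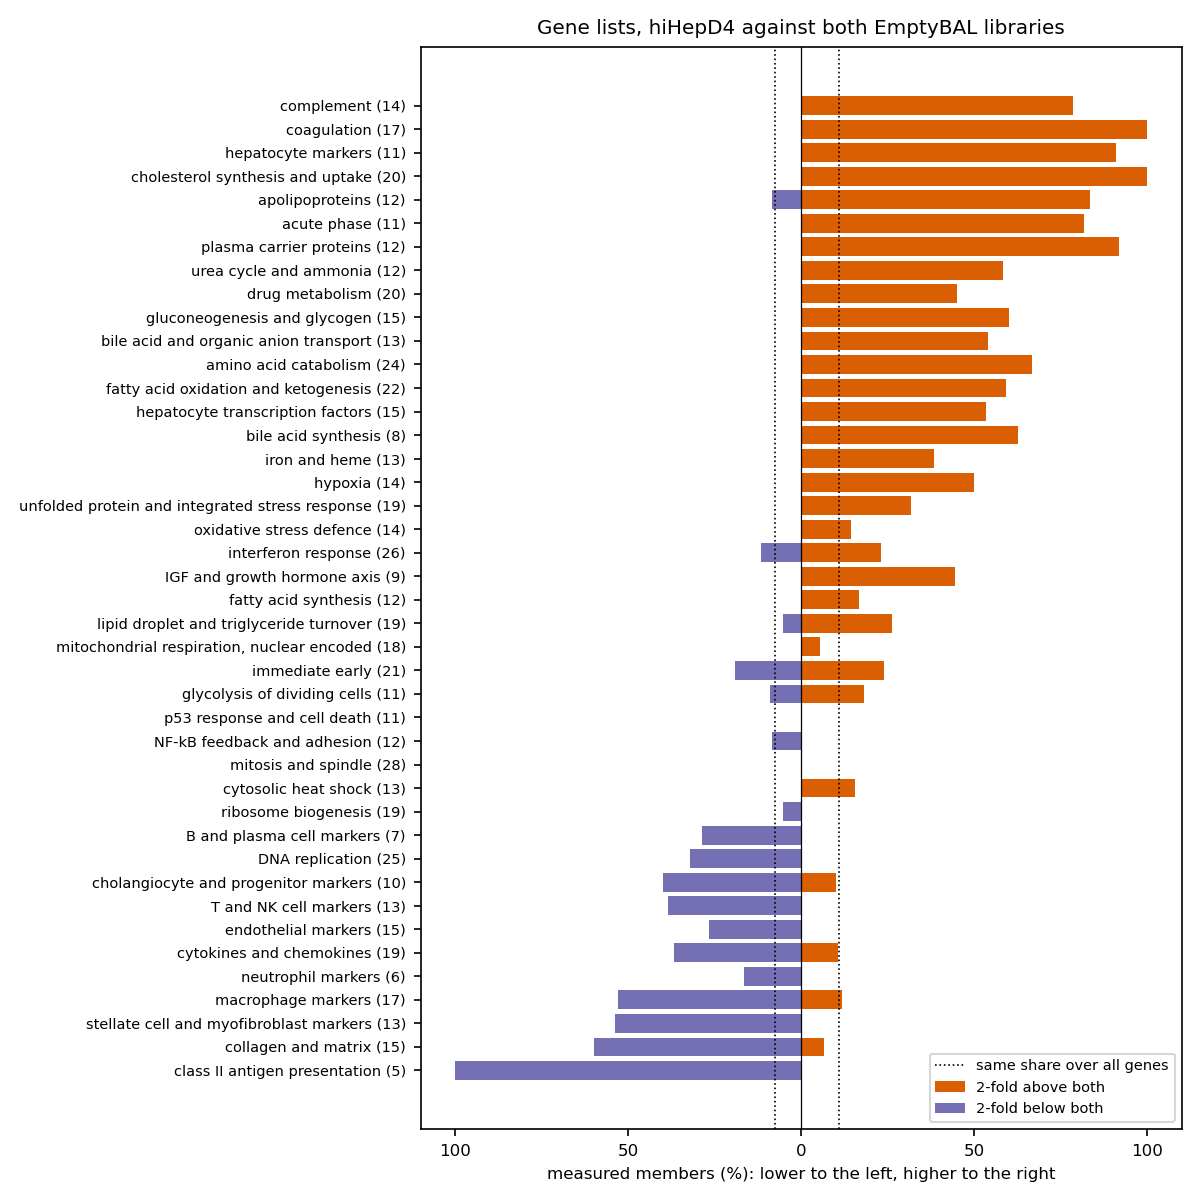
Percent of the measured members of each gene list with at least 5 members that were at least 2-fold above (right) or below (left) both EmptyBAL libraries in hiHepD4, ordered by the list's median difference, with dotted lines at 10.8% and 7.58%, the shares over all genes. All members of the coagulation and cholesterol lists were higher, all 5 class II antigen presentation genes were lower, and mitosis and p53 genes have no bar.

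Ammonia and amino acid metabolism was higher to different degrees against the EmptyBAL libraries. Of 12 urea cycle and ammonia genes, 7 were higher than both and none was lower, but 11 were at least 2-fold above replicate 1, and 3 were counted after scaling without the most abundant genes. ASS1, the step that joins citrulline and aspartate, had 71.8 and 222 FPKM in the EmptyBAL libraries and 1399 in hiHepD4. OTC, which forms citrulline, had 5.41 and 9.68 FPKM in the EmptyBAL libraries and 60.9 in hiHepD4, and GLS2, the liver glutaminase, 3.43 and 8.605 FPKM in the EmptyBAL libraries and 41.04 in hiHepD4. CPS1, the first step of the cycle, had 1.603 and 105 FPKM in the EmptyBAL libraries and 197 in hiHepD4, above both by 0.90 and not counted. ARG1, the final step, was named after its value was seen and had 16.4 and 680.0 FPKM in the EmptyBAL libraries and 728 in hiHepD4. For CPS1 and ARG1 the EmptyBAL libraries were much further from each other than hiHepD4 was from replicate 2.

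Amino acid breakdown was higher in 16 of 24 members and lower in none, with a median of 2.16. TAT, the first enzyme of tyrosine breakdown, had 7.73 and 41.9 FPKM in the EmptyBAL libraries and 753 in hiHepD4, and hiHepD8 3236 and 3203. TDO2, which opens the tryptophan ring, had 11.11 and 30.5 FPKM in the EmptyBAL libraries and 310.4 in hiHepD4. MAT1A, the liver form of the enzyme that makes S-adenosylmethionine, had 16.9 and 24.4 FPKM in the EmptyBAL libraries and 241 in hiHepD4. On day 8 TDO2 had 689 and 679.6 FPKM and HAL 151 and 154, so TAT and TDO2 were above hiHepD4 there and HAL was below it. SDS and UROC1, which degrade serine and histidine, lay inside the EmptyBAL range and were named after their values were seen.

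Glucose and fat handling showed the same direction. Of 15 gluconeogenesis and glycogen genes 9 were higher, with a median of 2.29. PCK1, the enzyme that commits to gluconeogenesis, had 45.5 and 389 FPKM in the EmptyBAL libraries and 2837 in hiHepD4. G6PC1, which releases free glucose, had 1.94 and 39.9 FPKM in the EmptyBAL libraries and 284 in hiHepD4, and GYS2, the liver glycogen synthase, 4.09 and 2.24 FPKM in the EmptyBAL libraries and 34.2 in hiHepD4. PC, pyruvate carboxylase, had 9.16 and 53.1 FPKM in the EmptyBAL libraries and 327 in hiHepD4. Values of PCK1, G6PC1 and PC exceeded the Control ranges, whereas GYS2 was below its range of 105 to 111.

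All 22 genes of fatty acid oxidation and ketogenesis were above both EmptyBAL libraries and 13 were counted as higher, with a median of 1.82. The count was 21 against replicate 1 alone and 8 after scaling without the most abundant genes. EHHADH, of peroxisomal oxidation, had 2.77 and 12.5 FPKM in the EmptyBAL libraries and 88.2 in hiHepD4. FGF21, a fasting hormone made by the liver, had 1.498 and 1.095 FPKM in the EmptyBAL libraries and 8.23 in hiHepD4. PPARA, the receptor that drives this programme, was named after its value was seen and stayed low at 0.0883 and 0.255 FPKM in the EmptyBAL libraries and 0.473 in hiHepD4, against 19.3 to 20.04 in Control. Of 19 lipid droplet and triglyceride genes, 5 were higher and 1 lower, and 8 and 3 against replicate 1 alone. PLIN5, which links droplets to mitochondria, had 4.695 and 33.2 FPKM in the EmptyBAL libraries and 413 in hiHepD4, and CD36, a fatty acid carrier, 4.54 and 5.1 FPKM in the EmptyBAL libraries and 53.2 in hiHepD4. MGLL, the monoglyceride lipase, was the lower gene, with 20.8 and 5.42 FPKM in the EmptyBAL libraries and 1.73 in hiHepD4. Of 18 nuclear-encoded respiration genes 1 was higher, beside 10.8% of all genes. It was SDHA of the succinate dehydrogenase complex, with 20.6 and 32.04 FPKM in the EmptyBAL libraries and 74.2 in hiHepD4. The count of higher respiration genes was 9 against replicate 1 alone and 0 under both other scalings.

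Drug metabolism and bile handling had both higher members and members inside the EmptyBAL range. Of 20 drug metabolism genes 9 were higher and none lower, but 17 were at least 2-fold above replicate 1. CYP2E1, which oxidises ethanol, had 63.2 and 181 FPKM in the EmptyBAL libraries and 1599 in hiHepD4. FMO1, a flavin monooxygenase, had 12.6 and 21.9 FPKM in the EmptyBAL libraries and 251 in hiHepD4, and AOX1, aldehyde oxidase, 6.23 and 5.802 FPKM in the EmptyBAL libraries and 63.5 in hiHepD4. CYP3A29 and CYP2A19, named after their values were seen, lay inside the EmptyBAL range, with 66.5 and 802 FPKM in the EmptyBAL libraries and 373 in hiHepD4 for the former. CYP2A19 had 226 and 3.14 FPKM in the EmptyBAL libraries and 9.45 in hiHepD4, and 5439.8 to 5609 in Control. Near-identical cytochrome P450 copies can share fragments, so these values are uncertain.

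Of 8 bile acid synthesis genes 5 were higher. AKR1D1, which reduces the steroid ring, had 3.18 and 17.5 FPKM in the EmptyBAL libraries and 109.8 in hiHepD4, and CYP8B1, which sets the cholic acid share, 0.0112 and 0.00766 FPKM in the EmptyBAL libraries and 1.77 in hiHepD4. CYP7A1, the rate-limiting enzyme, was named after its value was seen and had 1.03 and 0.562 FPKM in the EmptyBAL libraries and 0.458 in hiHepD4, against 32.3 to 34.1 in Control. The first step was thus not higher in hiHepD4, whereas 5 other genes of the list were. Of 13 bile acid and organic anion transport genes 7 were higher, and all 13 were at least 2-fold above replicate 1. SLCO2B1, an organic anion importer, had 1.698 and 2.27 FPKM in the EmptyBAL libraries and 23.2 in hiHepD4. SLC10A1, the bile acid importer of the blood side, had 5.03 and 1.94 FPKM in the EmptyBAL libraries and 15.7 in hiHepD4. ABCB11, the export pump of the bile side, was chosen after its value was seen and had 0.889 and 7.22 FPKM in the EmptyBAL libraries and 19.2 in hiHepD4.

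**Figure D4:**
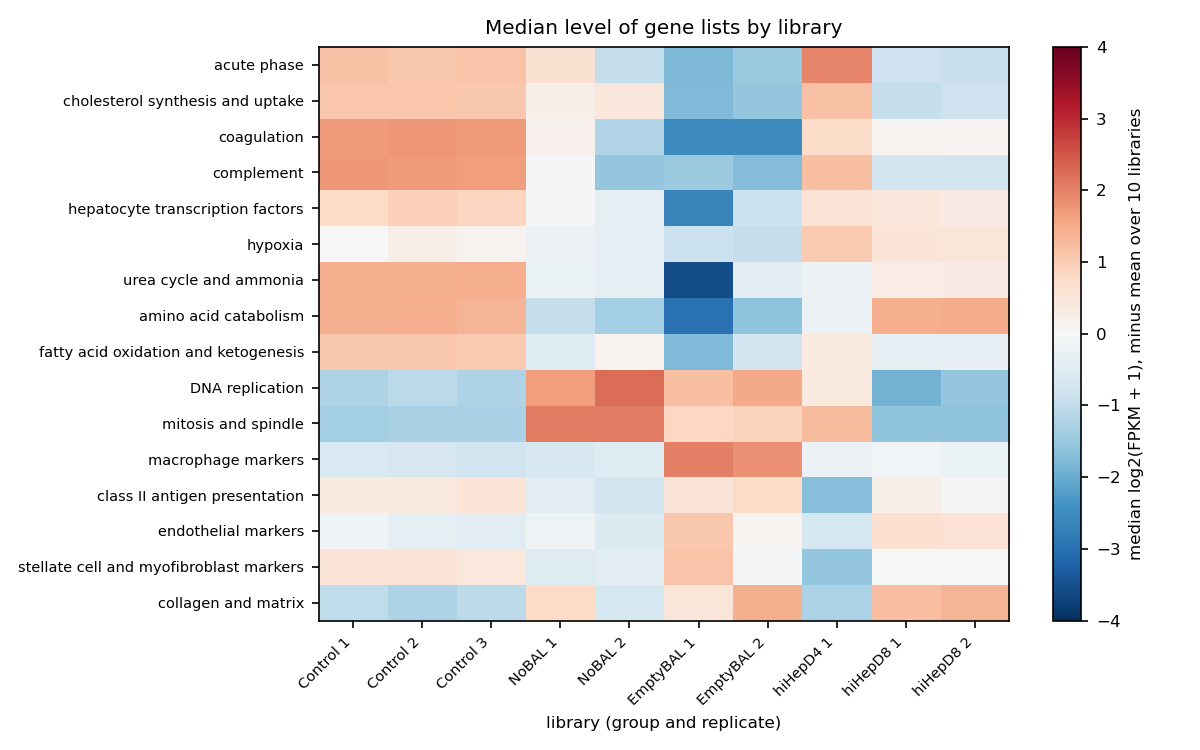
Median log2(FPKM + 1) of each gene list in every library, as the difference from that list's mean over the 10 libraries, with libraries in columns by group and the lists in rows. The hiHepD4 column is above both EmptyBAL columns for the coagulation list, with a median difference of 3.02, and below both for class II antigen presentation, with a median difference of -2.43.

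Hepatocyte transcription factors were higher in 8 of 15 members and lower in none, with a median of 1.59. The count was 5 after scaling without the most abundant genes. ATF5 had 25.2 and 44.2 FPKM in the EmptyBAL libraries and 404 in hiHepD4. FOXA3, a pioneer factor of liver genes, had 1.39 and 14 FPKM in the EmptyBAL libraries and 61.9 in hiHepD4, FOXA2, of the same family, 1.76 and 3.54 FPKM in the EmptyBAL libraries and 12.9 in hiHepD4, and NR5A2, a nuclear receptor of bile acid genes, 1.74 and 3.74 FPKM in the EmptyBAL libraries and 16 in hiHepD4. HNF4A, a central regulator of hepatocyte genes, had 3.15 and 46.5 FPKM in the EmptyBAL libraries and 121 in hiHepD4, against 105 to 112 in Control. HNF4A was low in EmptyBAL replicate 1 in particular. CEBPB, which takes part in the acute phase response, was named after its value was seen and lay inside the EmptyBAL range with 357 and 104 FPKM in the EmptyBAL libraries and 348 in hiHepD4.

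Growth and iron genes had single large changes. In the IGF and growth hormone list 4 of 9 were higher. GHR, the growth hormone receptor, had 0.373 and 1.68 FPKM in the EmptyBAL libraries and 13.6 in hiHepD4, and IGFBP4, which binds insulin-like growth factors, 58.1 and 57.9 FPKM in the EmptyBAL libraries and 288 in hiHepD4. IGFALS, a partner of circulating IGF1 and named after its value was seen, stayed low, with 1.89 and 3.44 FPKM in the EmptyBAL libraries and 4.79 in hiHepD4 and 187 to 198 in Control. In the iron and heme list 5 of 13 were higher, 10 against replicate 1 alone, led by CP and HPX as given above. TFR2, an iron sensor of hepatocytes, had 92.2 and 32.3 FPKM in the EmptyBAL libraries and 426 in hiHepD4, and SLC40A1, the iron exporter ferroportin, 3.73 and 12.7 FPKM in the EmptyBAL libraries and 36.8 in hiHepD4.

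Of 14 hypoxia genes 7 were higher and none lower, 5 to 6 were higher under the other scalings and 4 of those with a mean of at least 10 FPKM. For 8 of the 14, hiHepD4 was the highest of the 10 libraries, beside 9.11% of all genes. P4HA1, a collagen prolyl hydroxylase subunit, had 4.19 and 3.71 FPKM in the EmptyBAL libraries and 66.4 in hiHepD4. EPO, erythropoietin, had 0.412 and 2.04 FPKM in the EmptyBAL libraries and 15.2 in hiHepD4, and Control 0 to 0.0747. EGLN3, an oxygen-sensing hydroxylase, had 1.71 and 1.59 FPKM in the EmptyBAL libraries and 11.6 in hiHepD4, and VEGFA, the endothelial growth factor, 22.4 and 8.92 FPKM in the EmptyBAL libraries and 73.9 in hiHepD4. EPO and P4HA1 in hiHepD4 exceeded every other library, whereas VEGFA was under its Control range of 159.8 to 175. LDHA and PGK1 were the higher genes among 11 of glycolysis, beside 10.8% of all genes, a count of 4 against either EmptyBAL library alone. LDHA, the lactate dehydrogenase A chain, had 110.4 and 88.7 FPKM in the EmptyBAL libraries and 330.1 in hiHepD4. PGK1, phosphoglycerate kinase, had 27.6 and 31.3 FPKM in the EmptyBAL libraries and 64.99 in hiHepD4. PFKP, the platelet type phosphofructokinase, was the single lower one, a count of 4 against replicate 1 alone, with 24.4 and 13.5 FPKM in the EmptyBAL libraries and 2.92 in hiHepD4.

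Of 19 genes of the unfolded protein and integrated stress response 6 were higher and none lower. The count was 13 against replicate 1 alone and 1 after scaling without the most abundant genes, so it rests on the scale used. DNAJB9, an endoplasmic reticulum co-chaperone, had 2.43 and 13.9 FPKM in the EmptyBAL libraries and 48.8 in hiHepD4. XBP1, a transcription factor of this response, had 21.96 and 60.98 FPKM in the EmptyBAL libraries and 183 in hiHepD4, and PDIA4, a disulfide isomerase, 62.8 and 85.4 FPKM in the EmptyBAL libraries and 241 in hiHepD4. HERPUD1, of protein disposal in that compartment, had 18.97 and 24.5 FPKM in the EmptyBAL libraries and 67.04 in hiHepD4. ATF4 and ASNS of the amino acid branch, named after their values were seen, were not higher, with 41.5 and 29.5 FPKM in the EmptyBAL libraries and 24.8 in hiHepD4 for ATF4.

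In oxidative stress defence 2 of 14 were higher, beside 10.8% of all genes, and 8 against replicate 1 alone. SOD2, the mitochondrial superoxide dismutase, had 21.4 and 78.02 FPKM in the EmptyBAL libraries and 627 in hiHepD4, and GCLC, the catalytic subunit of glutathione synthesis, 6.29 and 10.7 FPKM in the EmptyBAL libraries and 60.6 in hiHepD4. HMOX1, heme oxygenase, was named after its value was seen and was high in both devices, with 879.9 and 272 FPKM in the EmptyBAL libraries and 736 in hiHepD4, against 57.4 to 60.01 in Control. Of 13 cytosolic heat shock genes 2 were higher, beside 10.8% of all genes, and 4 against replicate 1 alone. HSPB8 had 3.46 and 19.1 FPKM in the EmptyBAL libraries and 84.6 in hiHepD4. Its partner BAG3, the other gene counted against both, had 18.9 and 40.2 FPKM in the EmptyBAL libraries and 147 in hiHepD4. None of 11 p53 response genes was counted in either direction, and 2 were higher and 2 lower against replicate 1 alone. CDKN1A, the cell cycle inhibitor p21, named after its value was seen, had 12.9 and 38.3 FPKM in the EmptyBAL libraries and 48.96 in hiHepD4.

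Interferon response genes were split, with 6 of 26 higher and 3 lower, beside 10.8% and 7.58% of all genes. RIGI, a sensor of viral RNA, had 1.11 and 2.35 FPKM in the EmptyBAL libraries and 14.8 in hiHepD4, and IFI44 6.68 and 4.15 FPKM in the EmptyBAL libraries and 22.3 in hiHepD4. MX1, an antiviral GTPase, had 16.6 and 7.56 FPKM in the EmptyBAL libraries and 36.7 in hiHepD4. BST2, which tethers virus particles, was lower with 76.5 and 28.2 FPKM in the EmptyBAL libraries and 9.88 in hiHepD4, as were GBP1, a guanylate-binding protein, with 16.4 and 8.18 FPKM in the EmptyBAL libraries and 2.83 in hiHepD4, and PSMB9, an immunoproteasome subunit, with 38.7 and 14.9 FPKM in the EmptyBAL libraries and 5.76 in hiHepD4. All 3 lower genes are also expressed in immune cells, and whether this bears on the split was not tested. The higher count was 2 after scaling without the most abundant genes and 12 against EmptyBAL replicate 2 alone, and the lower count was 5 against replicate 1 alone.

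Immediate early genes were split as well, with 5 of 21 higher and 4 lower, beside 10.8% and 7.58% of all genes. Under the other scalings 2 and 1 were higher. ATF3, a stress-induced transcription factor, had 10.3 and 7.09 FPKM in the EmptyBAL libraries and 37.6 in hiHepD4, and MYC 30.2 and 52.9 FPKM in the EmptyBAL libraries and 126 in hiHepD4. NR4A1, an orphan nuclear receptor, was lower with 51.1 and 16.03 FPKM in the EmptyBAL libraries and 1.98 in hiHepD4, and FOSL1, a partner of JUN, with 15.9 and 10.3 FPKM in the EmptyBAL libraries and 0.618 in hiHepD4. Of 12 NF-kB feedback and adhesion genes none was higher and 1 was lower, beside 10.8% and 7.58% of all genes. Against replicate 2 alone 2 were higher, and against replicate 1 alone 2 were lower. The lower gene, CD40, a receptor on B cells and macrophages, had 14.5 and 10.3 FPKM in the EmptyBAL libraries and 2.298 in hiHepD4. Of 19 cytokines and chemokines 2 were higher, near the 10.8% of all genes, and 7 were lower, beside 7.58% of all genes. CCL4, a chemokine for T cells and monocytes, was higher with 30.4 and 42.4 FPKM in the EmptyBAL libraries and 334 in hiHepD4, and CXCL11, an interferon-induced chemokine, with 0.616 and 0.326 FPKM in the EmptyBAL libraries and 2.695 in hiHepD4. CCL21 and CCL19, which draw lymphocytes and dendritic cells, were lower, with 194 and 159 FPKM in the EmptyBAL libraries and 17.5 in hiHepD4 for CCL21. CCL19 had 50.6 and 44.03 FPKM in the EmptyBAL libraries and 5.07 in hiHepD4, and CCL5, a T cell chemokine, 74.7 and 67.2 FPKM in the EmptyBAL libraries and 18.2 in hiHepD4.

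Mitosis genes did not differ in one direction, whereas most DNA replication genes lay below both EmptyBAL libraries. None of 28 mitosis and spindle genes was counted, 12 lay above both EmptyBAL libraries and 8 below both, and the median difference was 0.07. UBE2C, which works with the anaphase-promoting complex, had 79.3 and 66.4 FPKM in the EmptyBAL libraries and 51.8 in hiHepD4, and BIRC5, survivin, 29.6 and 50.7 FPKM in the EmptyBAL libraries and 32.8 in hiHepD4. Both were far above Control, where UBE2C had 1.1 to 2.19 and BIRC5 1.83 to 2.55. Of 25 DNA replication genes 8 were lower and 18 lay below both EmptyBAL libraries, with a median of -0.77. MCM3, a subunit of the replicative helicase, had 18.5 and 16.7 FPKM in the EmptyBAL libraries and 5.95 in hiHepD4, MCM2, of the same complex, 14.3 and 16.5 FPKM in the EmptyBAL libraries and 5.15 in hiHepD4, and E2F1, the factor that switches on these genes, 23.5 and 14.4 FPKM in the EmptyBAL libraries and 5.22 in hiHepD4. The count of 8 was 2 with a pseudocount of 5 in place of 1. The NoBAL libraries were higher still, with 20.4 and 29.1 FPKM of MCM3, and hiHepD8 had 0.258 and 0.299. Of 19 ribosome biogenesis genes 1 was lower, beside 7.58% of all genes. The count was 2 against replicate 2 alone and 5 after scaling without the most abundant genes. The lower gene, NPM3, a histone-binding chaperone of the nucleolus, had 35.4 and 61.4 FPKM in the EmptyBAL libraries and 13.5 in hiHepD4.

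Markers of macrophages were lower in 9 of 17 members, class II antigen presentation genes in 5 of 5, stellate cell markers in 7 of 13 and endothelial markers in 4 of 15. CD209, a lectin of dendritic cells and macrophages, had the largest distance of all named lower genes, with 37.4 and 53.9 FPKM in the EmptyBAL libraries and 0.445 in hiHepD4, so the lower EmptyBAL value was 84.1 times that of hiHepD4. ACP5, the tartrate-resistant acid phosphatase of macrophages and osteoclasts, had 139.6 and 95.4 FPKM in the EmptyBAL libraries and 5.35 in hiHepD4, and GPNMB, a glycoprotein of lipid-laden macrophages, 65.2 and 102 FPKM in the EmptyBAL libraries and 4.21 in hiHepD4. CFD, complement factor D, had 166 and 235 FPKM in the EmptyBAL libraries and 7.66 in hiHepD4. ICAM3, an adhesion molecule of leukocytes, was listed at 0 in hiHepD4 and at 20.8 and 9.81 FPKM in EmptyBAL.

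The macrophage list also had 2 of 17 members higher, near the 10.8% of all genes, and its median was -1.54. CD68, a lysosomal protein of macrophages, had 63.9 and 77.5 FPKM in the EmptyBAL libraries and 12.7 in hiHepD4. CSF1R, the receptor on which macrophages depend, had 84.6 and 74.1 FPKM in the EmptyBAL libraries and 18.9 in hiHepD4, and CD163, the haemoglobin scavenger receptor, 84.05 and 108 FPKM in the EmptyBAL libraries and 26.9 in hiHepD4. TREM2, a lipid receptor, had 6.61 and 9.45 FPKM in the EmptyBAL libraries and 0.466 in hiHepD4. Control libraries had 14.7 to 16.4 FPKM of CD68 and 16.1 to 17.2 of CSF1R, so these 2 markers in hiHepD4 were close to normal liver and those in EmptyBAL above it. The summed FPKM of the list was 1222 in hiHepD4, 1393 and 1404.5 in EmptyBAL, 538 and 274 in NoBAL, 1152 to 1256 in Control and 907 and 910.1 in hiHepD8. Most of the hiHepD4 sum was CD14, a lipopolysaccharide co-receptor that human and mouse hepatocytes also make, with 90.8 and 167 FPKM in the EmptyBAL libraries and 843 in hiHepD4. The other higher member, LYZ, lysozyme, was listed at 0 in both EmptyBAL libraries and at 7.75 in hiHepD4.

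All 5 class II antigen presentation genes were lower, and for 4 of them hiHepD4 was the lowest of the 10 libraries, beside 8.1% of all genes. CD74, the invariant chain, had 1661 and 1104 FPKM in the EmptyBAL libraries and 251 in hiHepD4. SLA-DQB1, a class II chain of the pig, had 80.4 and 92.5 FPKM in the EmptyBAL libraries and 7.31 in hiHepD4, and SLA-DMB, which helps load peptides, 21.3 and 14.7 FPKM in the EmptyBAL libraries and 1.63 in hiHepD4. The list summed to 266 FPKM in hiHepD4 and 1802 and 1251 in EmptyBAL, with 610 and 306 in NoBAL and 552 to 567 in Control. Of 13 T and NK cell markers 5 were lower, GNLY, a killer cell granule protein, with 14.2 and 42.1 FPKM in the EmptyBAL libraries and 0.849 in hiHepD4, and CD4, the helper T cell co-receptor, with 9.55 and 7.49 FPKM in the EmptyBAL libraries and 0.384 in hiHepD4. The T and NK count was 9 and 10 under the other scalings and 8 against replicate 1 alone, and KLRB1 was listed at 0 in hiHepD4. Their sum was 21.5 FPKM in hiHepD4, 110.8 and 107.8 in EmptyBAL, 11.3 and 10.3 in NoBAL and 37.3 to 38.3 in Control. The hiHepD4 sum was thus below EmptyBAL and Control and above untreated failure. Of 7 B and plasma cell markers 2 were lower, beside 7.58% of all genes, and 4 against replicate 2 alone. MZB1, a plasma cell chaperone, had 15.4 and 36.7 FPKM in the EmptyBAL libraries and 2.43 in hiHepD4. Of 6 neutrophil markers all lay below both EmptyBAL libraries and 1 was counted, CSF3R, the receptor for granulocyte colony-stimulating factor, with 8.38 and 9.896 FPKM in the EmptyBAL libraries and 1.16 in hiHepD4. The neutrophil count was 4 against replicate 1 alone, 3 against replicate 2 alone and 5 against the EmptyBAL mean. The B and plasma cell markers summed to 37.0 FPKM in hiHepD4, 79.3 and 107 in EmptyBAL, 60.3 and 33.0 in NoBAL and 39.1 to 42.5 in Control. The neutrophil markers summed to 68.2 in hiHepD4, 632 and 110.9 in EmptyBAL, 239 and 30.3 in NoBAL and 2.32 to 3.57 in Control.

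**Figure D5:**
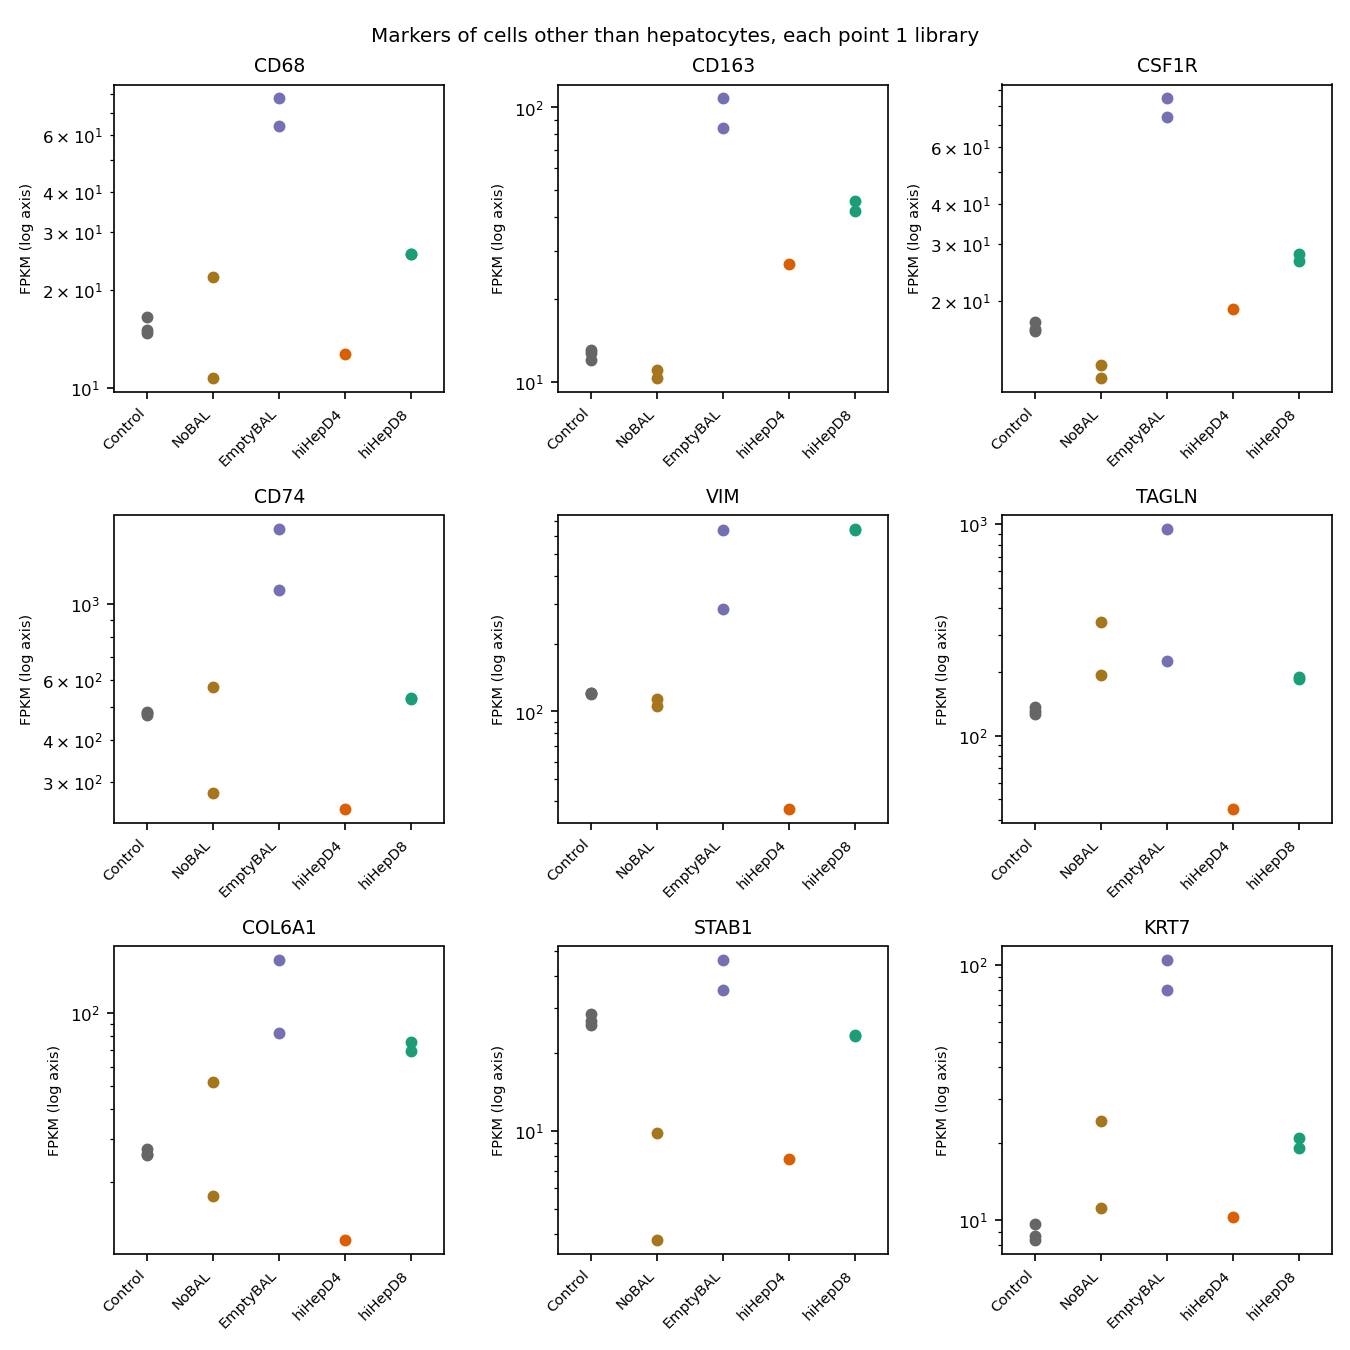
FPKM on a log axis of 9 genes that were lower in hiHepD4, 1 point per library in the same 5 groups. The hiHepD4 point is below both EmptyBAL points in each panel, as for VIM with 640.4 and 286 FPKM in EmptyBAL and 37.1 in hiHepD4, while the hiHepD8 points of VIM are at 640.4 and 641.

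Stellate cell and myofibroblast markers were below both EmptyBAL libraries for all 13 members, and 7 were counted as lower. For 8 of the 13, hiHepD4 was the lowest of the 10 libraries, beside 8.1% of all genes. VIM, the intermediate filament of mesenchymal cells, had 640.4 and 286 FPKM in the EmptyBAL libraries and 37.1 in hiHepD4. TAGLN, an actin-binding protein of smooth muscle and myofibroblasts, had 944 and 226 FPKM in the EmptyBAL libraries and 45.1 in hiHepD4, and ACTA2, smooth muscle actin, 447 and 169 FPKM in the EmptyBAL libraries and 46.1 in hiHepD4. DES, the muscle-type filament of stellate cells, had 45.3 and 15.9 FPKM in the EmptyBAL libraries and 4.297 in hiHepD4. Summed FPKM of the list was 234 in hiHepD4, 2399 and 1025 in EmptyBAL, 1298 and 914 in NoBAL, 595 to 643 in Control and 1360.1 and 1369 in hiHepD8. The matrix list had 9 of 15 lower and 1 higher, with a median of -1.61. The stellate cell list had the same median and also holds collagen genes, so these lists are not separate observations. COL6A1, a chain of collagen VI, had 165 and 82.5 FPKM in the EmptyBAL libraries and 11.5 in hiHepD4, DCN, the proteoglycan decorin, 39.4 and 30.4 FPKM in the EmptyBAL libraries and 4.33 in hiHepD4, and MMP2, a gelatinase, 76.1 and 123 FPKM in the EmptyBAL libraries and 13.4 in hiHepD4. FN1, fibronectin, which hepatocytes secrete into plasma, was the higher member, with 32.5 and 79.4 FPKM in the EmptyBAL libraries and 339 in hiHepD4, and 2 members were higher against replicate 2 alone.

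The other lower genes among the 12 with the largest distance have varied roles. MGP, an inhibitor of calcification, had 272 and 443 FPKM in the EmptyBAL libraries and 16.96 in hiHepD4. LGALS1, the lectin galectin 1, had 1721 and 295 FPKM in the EmptyBAL libraries and 23.3 in hiHepD4, and TPM2, a tropomyosin of contractile cells, 461 and 216 FPKM in the EmptyBAL libraries and 19.1 in hiHepD4. S100A6, a calcium-binding protein, had 219 and 446 FPKM in the EmptyBAL libraries and 14.6 in hiHepD4, and S100A14, of the same family, was listed at 0 in hiHepD4 and at 24.1 and 13.3 FPKM in EmptyBAL. DIRAS3, a small GTPase, had 30.5 and 16.5 FPKM in the EmptyBAL libraries and 0.182 in hiHepD4. LGALS1 differed more between the EmptyBAL libraries than any of these others. A small RNA assigned to U3 was listed at 0 in hiHepD4 and at 1136 and 11.7 FPKM in EmptyBAL, and U3 copies can share fragments.

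Endothelial markers lay below both EmptyBAL libraries in 12 of 15 members and 4 were counted as lower, a count of 13 against replicate 1 alone and of 8 after scaling without the most abundant genes. STAB1, a scavenger receptor of sinusoidal endothelium, had 45.8 and 35.3 FPKM in the EmptyBAL libraries and 7.75 in hiHepD4. CLEC4G, a sinusoidal lectin, had 36.8 and 97.4 FPKM in the EmptyBAL libraries and 9.54 in hiHepD4, and ENG, endoglin, 121 and 43.2 FPKM in the EmptyBAL libraries and 13.3 in hiHepD4. PECAM1, a marker of all endothelium named after its value was seen, had 73.3 and 20.1 FPKM in the EmptyBAL libraries and 17.9 in hiHepD4. The list summed to 86.0 FPKM in hiHepD4, 397 and 251 in EmptyBAL, 146 and 193 in NoBAL and 317 to 351 in Control. No member was at 0 in hiHepD4. Of 10 cholangiocyte and progenitor markers 4 were lower and 1 higher, beside 7.58% and 10.8% of all genes, and 7 were lower against replicate 2 alone. KRT7, the bile duct keratin, had 80.04 and 105 FPKM in the EmptyBAL libraries and 10.3 in hiHepD4, and SPP1, osteopontin, 527 and 183 FPKM in the EmptyBAL libraries and 52.8 in hiHepD4. CLDN4, a tight junction protein, was higher with 23.8 and 49.3 FPKM in the EmptyBAL libraries and 114 in hiHepD4, and not counted under either other scaling. KRT7 in hiHepD4 was close to Control, at 8.38 to 9.66.

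Red cell and platelet markers gave little. HBB, the haemoglobin beta chain, had 151 and 4.49 FPKM in the EmptyBAL libraries and 289 in hiHepD4, and the EmptyBAL libraries differed more from each other than hiHepD4 did from replicate 1. ALAS2, of heme synthesis in red cells, was the single red cell marker counted of 3, with 0.607 and 0 FPKM in the EmptyBAL libraries and 2.298 in hiHepD4, and all 3 were counted against replicate 2 alone. ITGB3, a platelet integrin subunit, was the single lower marker of 4 for platelets, a count of 3 against replicate 1 alone, with 2.35 and 2.49 FPKM in the EmptyBAL libraries and 0.563 in hiHepD4, and GP1BA was listed at 0 in hiHepD4. The part of blood, of other cell types and of the library scale in the differences of the liver function lists was not tested.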

How the data were processed

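The authors deposited 1 table of FPKM with 31905 genes and 10 libraries. Per the labels' protocols, total RNA of pig livers was sequenced from TruSeq libraries as paired 150 bp reads. The submitters' processing notes name Sscrofa11.1 and mm10 as builds and HISAT2, Cufflinks and HTSeq as tools, with no role for any. The table has pig identifiers, and what the mouse build mm10 was used for is not given. Strandedness and replicate pooling are not given in the sources used here. FPKM are scaled within each library, so abundant genes lower the values of the others. Symbols came from the table for 16497 genes and from a reference for 851, and 14557 had none. For shared symbols the most abundant gene was used. Positions are RefSeq's for Sscrofa11.1.

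A gene entered where 2 or more of the 10 libraries had 1 FPKM or more. Values were compared as log2(FPKM + 1) with Python 3.11.15, pandas 2.3.3 and numpy 2.4.6, and the calculation was tested on simulated data. With 1 hiHepD4 library no test was run. Named genes are the 12 with the largest distance in each direction that have a symbol and at least 10 FPKM, up to 4 members per list and direction, and all hepatocyte markers. Other genes named were chosen after their values were seen. Some genes that the rule takes are not reported here. The 44 lists hold 729 genes, of which 641 were found and 617 entered, and the members and lists were chosen with earlier results of these data known. Of those 617, 204 were higher and 73 lower. Alternatives were other pseudocounts, filters and scalings, each EmptyBAL library left out, and distance to the EmptyBAL mean.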

Additional observations from a re-analysis of the deposited data

How the results depend on the processing

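The counts of 1319 higher and 923 lower genes depended on scale, pseudocount and the EmptyBAL library used. A pseudocount of 0.1 gave 1548 lower genes, and a pseudocount of 5 gave 784 higher and 348 lower, 47 of them on the gene lists. With a mean of at least 10 FPKM, 3873 genes lay outside both EmptyBAL libraries, 328 were lower and 43 listed genes were lower. Rescaling without mitochondrial and the 20 most abundant genes gave 648 higher and 1783 lower, with 114 listed genes lower. All 923 lower genes stayed lower under both scalings, while 989 and 648 of the 1319 higher genes stayed higher. Both scalings multiplied hiHepD4 by less than 1 (0.956 and 0.885) and both EmptyBAL libraries by more than 1. Lower genes therefore could not drop out, and these numbers do not show which direction is more stable. Leaving out either EmptyBAL library gave 1639 to 2501 higher, 1157 to 2217 lower and 102 to 119 listed lower genes, against 73 with both. Distance to the EmptyBAL mean gave 2013 higher, 1628 lower and 110 listed lower. All 175 genes taken by the naming rule that were counted as higher or lower kept their direction under every alternative in which they entered, and 152 to 175 stayed 2-fold beyond where all 175 entered, the fewest with a pseudocount of 5 and 156 under the second scaling. Other pseudocounts, filters, a left-out EmptyBAL library or the EmptyBAL mean cannot reverse a gene 2-fold beyond both libraries. Only the scalings could have done so, and only for higher genes. The platelet marker median reversed to 0.44 with a mean of at least 10 FPKM, and among 27 lists with a median of at least 1 in size it was the single list whose sign changed under any alternative. That list summed to only 9.27 to 28.5 FPKM per library, so few of its members can have passed this filter. The reversed median thus covers fewer genes than the main one. The cause of the other changes was not tested. Removing the filter on low values gave 1347 higher and 923 lower genes. No paired analysis was possible because hiHepD4 has a single library. Fragment depth is unknown, so genes of low FPKM carry an error that could not be given.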

Other observations

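Gene families grouped by symbol after their values were seen add to the description, with counts as above and no test. Of 26 genes of translocation into and glycosylation in the endoplasmic reticulum, where secreted proteins are made, 25 lay above both EmptyBAL libraries and 9 were counted as higher, with a median difference of 1.17. SEC61A1, of the translocation channel, had 30.8 and 69.6 FPKM in the EmptyBAL libraries and 161 in hiHepD4, and DDOST, of the glycosylation complex, 86.6 and 142 FPKM in the EmptyBAL libraries and 335 in hiHepD4. The median was 0.97 and 0.68 under the other scalings, with 3 and 0 counted. SAR1B, a GTPase of vesicle export, had 42.4 and 40.2 FPKM in the EmptyBAL libraries and 123 in hiHepD4, and 5 of 20 COPII and COPI coat genes were higher with none lower, but under the scaling without the most abundant genes none was higher and 1 was lower. Of 20 serpin genes, the family of protease inhibitors, 11 were higher and 2 lower, and the higher count was 11 under both scalings too. SERPINF1, pigment epithelium-derived factor, had 64.2 and 44.96 FPKM in the EmptyBAL libraries and 572 in hiHepD4, and SERPINH1, the collagen chaperone, was lower with 136 and 45.5 FPKM in the EmptyBAL libraries and 15.2 in hiHepD4.

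Cytosolic ribosomal protein genes lay below both EmptyBAL libraries for 51 of 59 members with a median of -0.53, and 2 were counted as lower, RPS20 and RPS28. RPS28 had 1939.7 and 1894 FPKM in the EmptyBAL libraries and 845 in hiHepD4. That count was 5 and 23 under the other scalings. Of 21 collagen genes 20 lay below both EmptyBAL libraries and 10 were lower, and COL18A1, the source of endostatin, was higher with 76.4 and 100.3 FPKM in the EmptyBAL libraries and 266 in hiHepD4. The family includes collagen genes of the stellate cell and matrix lists and is not separate from them. Of 22 integrin genes 7 were lower and 1 higher, with ITGB2, the shared chain of leukocyte integrins, at 54.4 and 25.5 FPKM in the EmptyBAL libraries and 11.8 in hiHepD4. Of 9 annexin genes 3 were lower, among them ANXA2 with 899.9 and 402 FPKM in the EmptyBAL libraries and 123 in hiHepD4. Of 41 mitochondrial carrier genes 7 were higher and 1 lower, beside 10.8% and 7.58% of all genes. SLC25A47 led the higher ones, with 16.5 and 84.7 FPKM in the EmptyBAL libraries and 1279 in hiHepD4. For 172 zinc finger genes, 7 were higher and 2 lower with a median of 0.02, and the median was -0.12 and -0.32 under the other scalings.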
